A study of Mus musculus with 2 samples.

Results

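The SLC25 family, carrier proteins mostly of the inner mitochondrial membrane, was described in mouse heart at the level of RNA. Members were chosen by name: every gene whose symbol is Slc25a followed by a number and that has a protein-coding transcript. This gave 47 genes of the 55536 annotated genes in the deposited tables, of which 22015 were nuclear and protein-coding. The word family below means these 47 genes only, so carriers under other symbols, such as the uncoupling proteins, are outside its sums. Hearts came from males aged 14 days of B6CASTF1/J, an F1 cross between C57BL/6J, a common laboratory strain, and CAST/EiJ, a strain derived from wild mice. Total RNA was depleted of ribosomal RNA, mixed with spike-in RNAs and sequenced with strand information in 2 libraries, called replicates 1 and 2 by the labels, each from 300 ng of RNA. Both belong to 1 group without treatment, carry the same donor label and name "3x Males". The labels do not say whether tissue of more than 1 animal went into a library, so any spread given here is that between these libraries and may be technical.

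An SLC25 carrier is a small protein built from repeats of 1 module. Most of these carriers span the inner membrane and move a particular set of solutes between the cytosol and the mitochondrial matrix. In heart muscle, which makes its ATP almost wholly by oxidation, the ADP/ATP carriers exchange matrix ATP for cytosolic ADP and the phosphate carrier brings in the phosphate for ATP synthase. Other carriers move fatty acyl groups as acylcarnitines, the malate, glutamate and aspartate of the shuttle that carries reducing equivalents, and coenzymes, iron and nucleotides. Several solutes are served by pairs of related genes of which each is best known from a different tissue.

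The libraries held 39334380 and 46391250 expected counts. Levels are in TPM, transcript abundance scaled for length and depth, and paired values are given for replicate 1 and then replicate 2. All 10 cardiomyocyte markers exceeded 1 TPM in both libraries, with a summed level of 46383 and 44907 TPM. Red cell genes were also abundant (27704 and 26717 TPM summed over the 9 found). The libraries stood apart in T cell and atrial RNA. The 10 T cell and thymus genes summed to 1.63 TPM in replicate 1 and 56.9 TPM in replicate 2. The 8 atrial genes, of a part of the heart itself, summed to 1650 and 520.6 TPM. The 7 fat cell genes summed to 534.6 and 424.0 TPM, of which Fabp4 alone gave 481.0 and 390.7 TPM. Ucp1, the brown fat uncoupling protein, was at 9.76 and 0.32 TPM and was called lower in replicate 2. Plin1, Cfd, Adipoq and Fabp4 were also lower in replicate 2, with log2 ratios of scaled counts of -0.94, -0.81, -0.68 and -0.30. Cidea, another brown fat gene, was at 25.8 and 22.6 TPM, a log2 ratio of -0.21. Only Lep was higher, called on 4 and 20 counts. In whole tissue, fewer cells of a type and less RNA per cell cannot be told apart.

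Of the 47 members, 39 reached 1 TPM in both libraries, beside 51.8% of nuclear protein-coding genes. Levels covered a wide range: 5 members stood at 100 TPM or more in both libraries, 22 lay between 1 and 10 TPM, and the other 12 detected members lay between these groups. The members' median was 6.46 and 6.36 TPM, against 1.42 and 1.53 TPM for nuclear protein-coding genes. Among detected genes alone the order was the opposite, with 8.70 and 9.13 TPM for the members and 9.72 and 9.94 TPM for all. Together the members took 0.999% and 0.979% of all TPM in nuclear protein-coding genes. Slc25a4, Slc25a3 and Slc25a5 made up 79.1% and 79.4% of that sum. The RNA of the 47 members was thus mostly that of 3 carriers for ADP, ATP and phosphate. Of the members, 10 were at or above the 90th percentile of all protein-coding genes in both libraries.

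**Figure D1:**
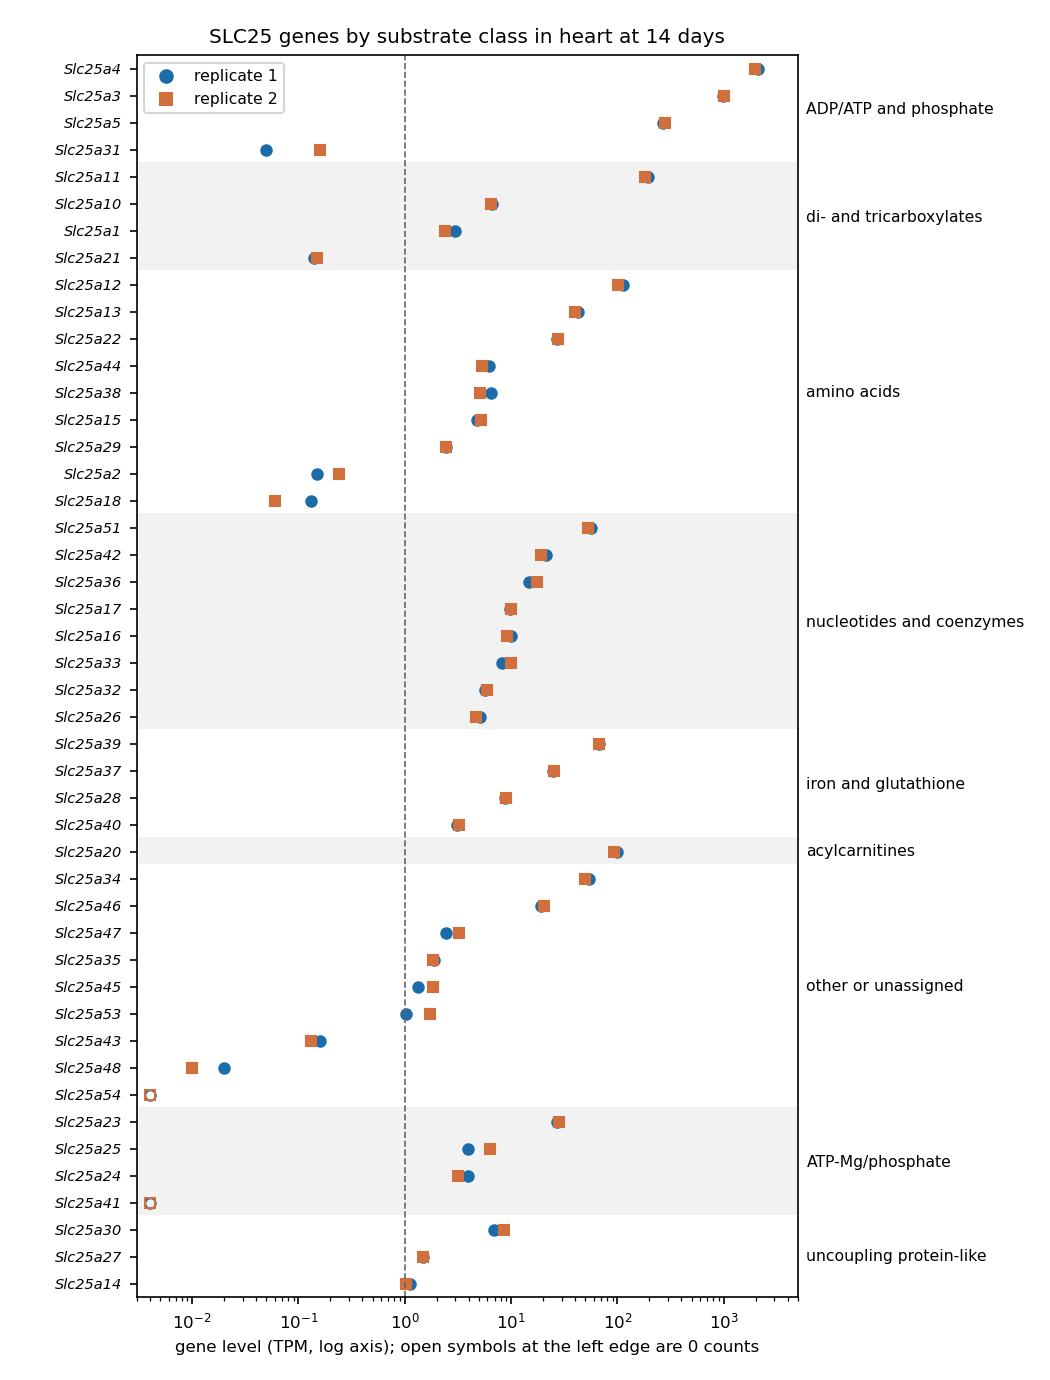
Level of 46 SLC25 genes in TPM (log axis) in replicate 1 (circles) and replicate 2 (squares), grouped by substrate class, with the dashed line at the detection limit of 1 TPM. Slc25a4 (2092 and 1986 TPM) and Slc25a3 (989 and 1009 TPM) lie highest, and Slc25a5 comes next at 267.3 and 279.1 TPM.

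The ADP/ATP and phosphate carriers formed the highest class, with 3 of 4 members detected and 79.2% ± 0.193 (SD, n = 2) of the family's TPM. Slc25a4, the ADP/ATP carrier typical of heart and skeletal muscle, stood at 2092 and 1986 TPM, 48.8% of the family. Slc25a5, its counterpart of growing and other tissues, stood at 267.3 and 279.1 TPM. Slc25a31, the testis form, was at 0.05 and 0.16 TPM, on 3 and 12 counts. Germ cell markers were close to 0, with Prm1 and Tnp1 at 0 counts in both libraries. All 3 share a signature of 6 residues, the mark of ADP/ATP carriers, which a search of the coding sequence of all 47 members found in no other member. The coding stretch around it is shown because it separates the 3 genes: signature bases are in capitals, 5′ to 3′, from the GENCODE M21 transcripts on GRCm38 (Slc25a4 on chromosome 8, Slc25a5 on the X chromosome, Slc25a31 on chromosome 3).
Slc25a4: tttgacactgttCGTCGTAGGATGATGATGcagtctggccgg
Slc25a5: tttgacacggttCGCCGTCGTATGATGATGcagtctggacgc
Slc25a31: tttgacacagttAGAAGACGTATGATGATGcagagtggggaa

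Over these 42 bases, Slc25a4 and Slc25a5 differed at 6 positions, Slc25a31 and Slc25a5 at 11, and Slc25a31 and Slc25a4 at 13. Across their whole coding sequences Slc25a4 and Slc25a5 were 77.4% identical in bases and 89.6% in residues. The log2 ratio of Slc25a4 over Slc25a5, taken on TPM + 0.1, was 2.97 and 2.83, a 7.46-fold higher level for the muscle gene. Slc25a4 exceeded Slc25a31 by 13.77 and 12.90 log2 units, with exact 95% intervals without the pseudocount of 13.85 to 17.68 and 12.78 to 14.54, which cover counting error only. Of the sequence words of 31 bases in Slc25a5 transcripts, 49.4% also occur in other genes, chiefly processed pseudogenes such as Gm5560, itself at 0.23 and 0.42 TPM. Slc25a4 shared no such word. The level of Slc25a5 therefore depends on how the authors' tools divided shared reads, which that of Slc25a4 does not.

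Slc25a3, the phosphate carrier, was the second most abundant member at 988.7 and 1009 TPM, below Slc25a4 by 1.08 and 0.98 log2 units. Its gene has a pair of mutually exclusive coding exons, the upstream of which is known as the heart and skeletal muscle form. They lie on the minus strand of chromosome 10 (GRCm38): exon A at chr10:91122207-91122331, 125 bases, and exon B at chr10:91121922-91122043, 122 bases. Their sequences are shown because they are the part of the RNA that tells the isoforms apart: in an alignment of 126 columns, 80 were identical (63.5%), and bases in capitals differ or have no partner.
exon A: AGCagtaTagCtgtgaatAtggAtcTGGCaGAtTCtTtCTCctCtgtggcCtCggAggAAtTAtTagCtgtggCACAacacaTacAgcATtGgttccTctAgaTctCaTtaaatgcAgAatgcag
exon B: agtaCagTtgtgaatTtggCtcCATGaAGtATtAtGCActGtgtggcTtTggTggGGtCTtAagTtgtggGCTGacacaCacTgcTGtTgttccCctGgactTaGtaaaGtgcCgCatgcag

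The transcript with exon A, Slc25a3-206, had 889.7 and 912.9 TPM by the RSEM-style tables, 89.98% and 90.45% of the gene. Transcripts with exon B, Slc25a3-201 and Slc25a3-203, together had 89.66 and 86.05 TPM, 9.07% and 8.53%. Exon A was therefore 9.92-fold and 10.6-fold above exon B. The kallisto-style tables gave exon A a smaller lead, 3.21-fold in both libraries, with 73.1% and 73.4% for Slc25a3-206 and 22.8% and 22.9% for the exon B transcripts. The libraries thus lay close together while the tables lay about 3 times apart, and exon A led in all 4 cases. Within exon B the tables also named different transcripts: Slc25a3-201 led in the RSEM-style tables (84.9 and 81.3 TPM) and Slc25a3-203 in the kallisto-style tables (232.5 and 242.0 TPM).

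**Figure D2:**
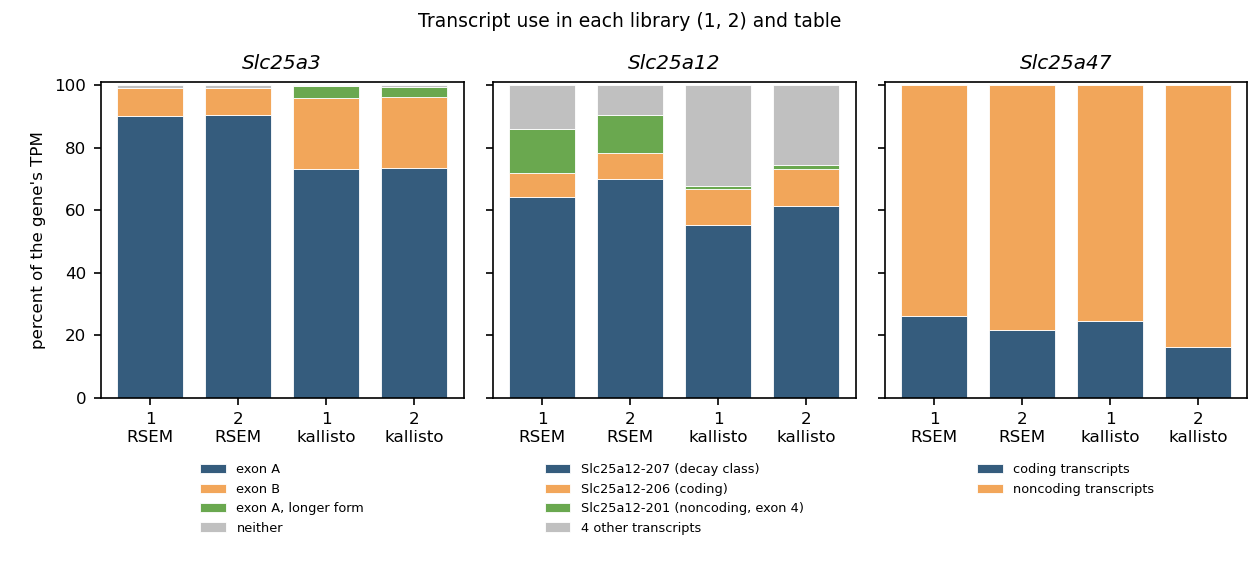
Percent of the gene's TPM in groups of transcripts of Slc25a3, Slc25a12 and Slc25a47, as stacked bars for replicates 1 and 2 in the RSEM-style and kallisto-style tables. Exon A holds 89.98% and 90.45% of Slc25a3 by the RSEM-style tables and 73.1% and 73.4% by the kallisto-style tables. The decay-class transcript leads Slc25a12 in every bar, and coding transcripts hold 16% to 26% of Slc25a47.

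Among the aspartate/glutamate carriers, gene level and coding transcript level gave different orders. Slc25a12, the form of heart, muscle and brain, was at 113.3 and 100.5 TPM, and Slc25a13, the form best known from liver, at 42.8 and 39.6 TPM. The log2 ratio was 1.40 and 1.34 in favour of Slc25a12, a 2.59-fold difference at the gene level. The Slc25a12 total was carried mainly by Slc25a12-207, annotated as subject to nonsense-mediated decay, a pathway that removes RNAs with early stop codons: it had 72.8 and 70.5 TPM, 64.3% and 70.1% of the gene. Slc25a12-206, the only transcript annotated as protein-coding, had 8.50 and 8.33 TPM. Counting protein-coding transcripts alone turned the pair around, with Slc25a13 higher by a log2 ratio of -2.27 and -2.22.

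The 2 Slc25a12 transcripts differ in an inner exon and in length. Exon 4 of Slc25a12-206 (chr2:71333605-71333720, GRCm38, minus strand, 116 bases) is absent from Slc25a12-207, whose annotated coding part is 261 bases against 2031. Its last exon has 664 bases, against 4291 in Slc25a12-206. The exon that the decay-class transcript lacks reads as follows, shown because it is the coding part by which reads could tell these RNAs apart.
Slc25a12 exon 4: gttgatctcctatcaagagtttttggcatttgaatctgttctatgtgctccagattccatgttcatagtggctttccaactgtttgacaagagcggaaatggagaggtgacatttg

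Only Slc25a12-206 holds both this exon and the long last exon, of the 7 annotated transcripts. Those with exon 4, Slc25a12-206 and the noncoding fragment Slc25a12-201, together took 21.6% and 20.3% of the gene's TPM in the RSEM-style tables and 12.4% and 12.8% in the kallisto-style tables. The annotation holds no transcript with exon 4 and the short last exon that is coding, and the tables do not give counts per exon.

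The glutamate carriers were split more sharply. Slc25a22 was at 27.0 and 27.7 TPM, while Slc25a18, its relative known from brain astrocytes, was at 0.13 and 0.06 TPM on 7 and 4 counts. Their log2 ratio was 6.88 and 7.44. Neuronal markers were low, with 1 of 5 detected (Slc17a7), and no astrocyte markers were examined. Slc25a15, the ornithine carrier of the urea cycle, stood at 4.79 and 5.20 TPM, above its relative Slc25a2 at 0.15 and 0.24 TPM, by a log2 ratio of 4.29 and 3.96. The remaining amino acid carriers were low but detected. Slc25a44, which carries branched-chain amino acids, was at 6.2 and 5.37 TPM. Slc25a38, the glycine carrier needed for haem synthesis, was at 6.46 and 5.05 TPM. Slc25a29, a carrier of basic amino acids, was at 2.44 and 2.46 TPM. The class of 9, with 7 detected, took 4.66% ± 0.203 (SD, n = 2) of the family's TPM.

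Among carriers of di- and tricarboxylates, a single member accounted for almost all RNA of the class. Slc25a11, the oxoglutarate/malate carrier and the partner of the aspartate/glutamate carriers in the malate-aspartate shuttle, was at 194.6 and 182.3 TPM. Slc25a10, the dicarboxylate carrier best known from liver and fat, was at 6.64 and 6.53 TPM, lower by 4.85 and 4.78 log2 units. Slc25a1, the citrate carrier that exports carbon for lipid synthesis, was at 2.97 and 2.41 TPM, lower than Slc25a11 by 5.99 and 6.18 log2 units. Slc25a21, the oxodicarboxylate carrier, was at 0.14 and 0.15 TPM, below the detection limit. The class took 4.73% ± 0.135 of the family's TPM (SD, n = 2). Against its shuttle partner, Slc25a11 exceeded Slc25a12 by 0.78 and 0.86 log2 units, less than the 1 log2 unit used here as a threshold for pairs. The same ratio was 1.21 and 1.29 in the kallisto-style tables and 4.46 and 4.40 over protein-coding transcripts alone, both past the threshold.

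Slc25a20, the carnitine/acylcarnitine carrier that admits long-chain fatty acyl groups for oxidation, was at 100.3 and 93.6 TPM, sixth of all members in both libraries. It exceeded Slc25a29, once described as a related acylcarnitine carrier, by 5.30 and 5.19 log2 units. This single gene took 2.32% ± 0.0705 (SD, n = 2) of the family's TPM.

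All 9 carriers of nucleotides and coenzymes were detected, and all lay below Slc25a20. The class took 3.54% ± 0.0373 (SD, n = 2) of the family's TPM. Slc25a51, which imports NAD, led with 56.6 and 53.5 TPM. Slc25a42, a coenzyme A carrier, was at 21.4 and 19.0 TPM, and its relative Slc25a16 at 9.96 and 9.13 TPM. Their log2 ratio was 1.10 and 1.05 in the RSEM-style tables but 0.63 and 0.38 in the kallisto-style tables, so the pair passed 1 log2 unit in the first only. Over protein-coding transcripts of the RSEM-style tables it was 0.93 and 0.79, also under 1 log2 unit. Slc25a36 and Slc25a33, both pyrimidine nucleotide carriers, were at 14.8 and 17.6 TPM and at 8.30 and 9.93 TPM, a log2 ratio of 0.82 in both libraries. Over protein-coding transcripts alone this ratio was 0.27 and 0.02. Slc25a17, a peroxisomal member, was at 9.77 and 9.97 TPM. Slc25a32, linked to folate and FAD, was at 5.63 and 5.98 TPM. Slc25a26, which imports the methyl donor S-adenosylmethionine, was at 5.05 and 4.69 TPM.

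The iron and glutathione carriers were all detected and took 2.49% ± 0.0640 (SD, n = 2). Slc25a39, which carries glutathione, was the highest at 66.9 and 67.0 TPM, and its relative Slc25a40 was at 3.09 and 3.25 TPM, 4.39 and 4.32 log2 units lower. Slc25a37, the iron carrier known from red cell precursors, was at 24.6 and 25.3 TPM, above Slc25a28, the iron carrier of most other tissues, at 8.70 and 8.87 TPM. That log2 ratio of Slc25a28 over Slc25a37 was -1.49 and -1.5. Red cell RNA was present beside it: Alas2, the haem synthesis enzyme of red cell precursors, was at 165.4 and 135.1 TPM, 8 of the 9 red cell genes found were detected, and none of the 9 was at 0. Their part in the level of Slc25a37 was not tested.

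The ATP-Mg/phosphate carriers, which adjust the matrix pool of adenine nucleotides, took 0.870% ± 0.0693 (SD, n = 2). Slc25a23 led with 26.9 and 28.4 TPM and exceeded Slc25a24, at 3.95 and 3.14 TPM, by 2.73 and 3.14 log2 units. Slc25a25 was at 3.95 and 6.36 TPM, so its log2 ratio over Slc25a24 was 0.00 in replicate 1 and 1.00 in replicate 2, the widest spread of the 21 pairs (SD 0.70). Slc25a41, known from testis and liver, had 0 counts in both libraries. Against the limit of 3 counts per library that a count of 0 allows, Slc25a24 was at least 44.3-fold and 42.2-fold higher, without the counting error of Slc25a24 itself. With that error included, the exact 95% lower limits of the log2 ratio were 5.16 and 5.10.

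Among the 47 members, the uncoupling protein-like ones, best known from brain and kidney, were the lowest class, with 3 of 3 detected. They took 0.246% ± 0.0297 (SD, n = 2) of the family's TPM. Ucp1, Ucp2 and Ucp3 fall outside the symbol rule and are not counted here. Slc25a30 was at 6.91 and 8.52 TPM, Slc25a27 at 1.5 and 1.47 TPM and Slc25a14 at 1.12 and 1.03 TPM. Slc25a14 lay below Slc25a30 by a log2 ratio of -2.52 and -2.93, and within 1 log2 unit of Slc25a27 (-0.39 and -0.47).

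Of the 9 members with other or unassigned solutes, 6 were detected. Slc25a34, of unsettled substrate, stood at 53.9 and 49.8 TPM, among the 10 highest members, while its relative Slc25a35 was at 1.87 and 1.84 TPM, 4.78 and 4.68 log2 units lower. Slc25a46, which sits in the outer membrane and acts in mitochondrial dynamics, was at 19.2 and 20.3 TPM. Slc25a45 was at 1.34 and 1.84 TPM. Slc25a53 was at 1.03 and 1.71 TPM, of which protein-coding transcripts gave 9.71% and 7.60%. Slc25a43, which lies 18448 bases from Slc25a5 on the X chromosome, was at 0.16 and 0.13 TPM. The kallisto-style tables gave it 0.45 and 0.67 TPM, also below the detection limit. Slc25a48, a choline carrier, had 2 and 1 counts, and Slc25a54 had 0, which allows up to 0.0655 and 0.0548 TPM at 3 counts.

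Slc25a47, known as a liver carrier, was detected at 2.42 and 3.26 TPM, and stood above Slc25a48. The log2 ratio of Slc25a48 over Slc25a47 was -4.39 and -4.93, with exact 95% intervals without the pseudocount of -9.999 to -5.01 and -13.93 to -6.10. Only 26.4% and 21.8% of it lay in protein-coding transcripts. Liver genes were close to 0, with a sum of 0.35 and 0.56 TPM over 6 and none detected. The noncoding transcripts start 163, 199 and 1181 bases from the start of Slc25a29, which runs the other way, whereas the coding transcripts start 15246 and 15256 bases from it. Between the outermost annotated starts of these genes lie 162 bases, chr12:108835884-108836045 (GRCm38), with 18 CpG dinucleotides and 71.6% G or C. The 162 bases before the start hold at least as many CpG in 11.0% of the 32851 promoters of the RefSeq table (GRCm38.p6), where the median is 4. The stretch is shown on the minus strand, as Slc25a29 is read, with each CpG (the letters CG, the same on both strands) in capitals, because it lies between the starts of both RNAs.
Slc25a29 to Slc25a47: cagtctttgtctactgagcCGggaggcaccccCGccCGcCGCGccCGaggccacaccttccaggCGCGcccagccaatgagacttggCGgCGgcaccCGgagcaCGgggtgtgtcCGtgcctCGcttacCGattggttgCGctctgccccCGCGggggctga

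Of the 21 pairs of related members, 16 differed by 1 log2 unit or more in the same direction in both libraries, 13 with the first gene named higher and 3 with the second. The first gene named was mostly the one known from heart or from many tissues, and the pairs were set with earlier results of these libraries known, so the count describes the levels and is no test. Some genes, such as Slc25a4 and Slc25a11, stand in more than 1 pair. The share among arbitrary pairs of members was not computed, so the count is not read as high or low. An exact sign-flip test of 2 libraries cannot go below p = 0.5. The 3 pairs in the other direction were Slc25a28 under Slc25a37, Slc25a14 under Slc25a30 and Slc25a48 under Slc25a47. In all 3, a member first known from red cells, kidney or liver was the higher. Pair differences are of levels per length. The pairs are not equally close: identical residues ran from 13.1% for the shuttle partners Slc25a11 and Slc25a12 to 89.6% for Slc25a4 and Slc25a5.

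**Figure D3:**
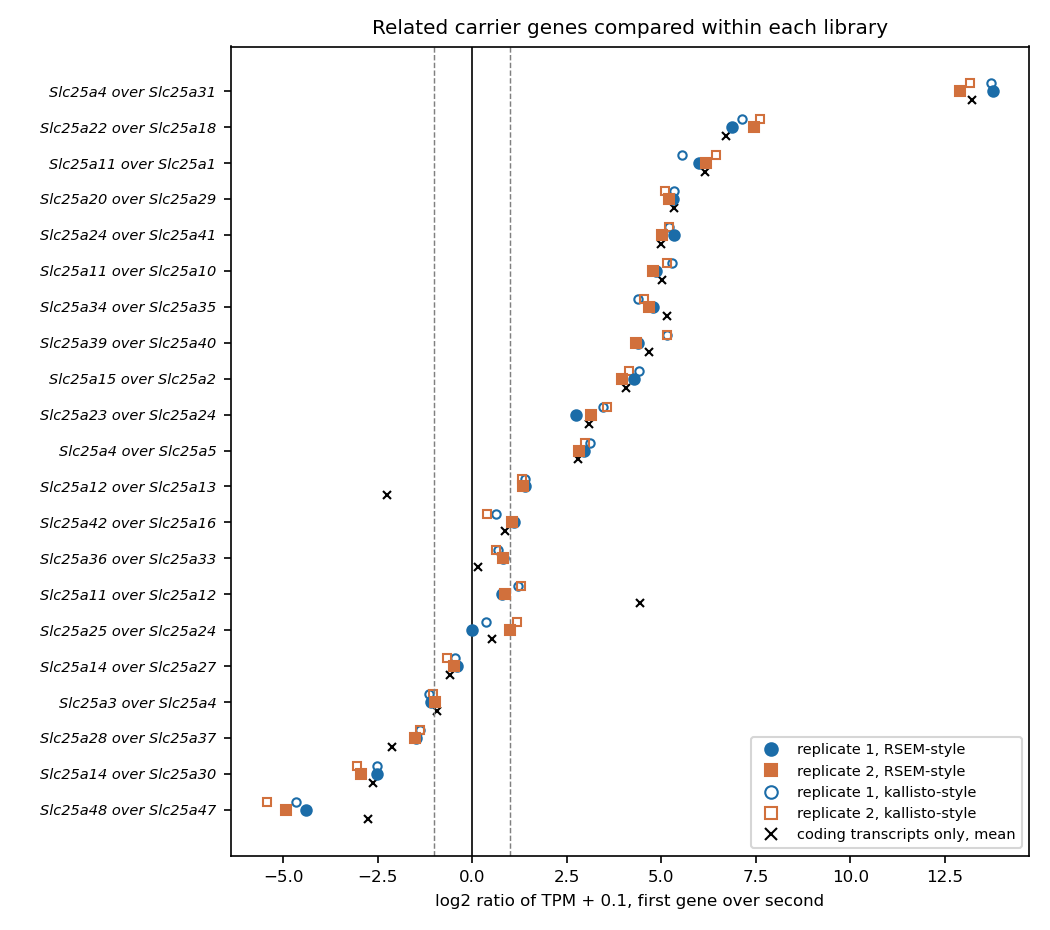
Log2 ratio of TPM + 0.1 for the 21 pairs of related genes in replicate 1 (circles) and replicate 2 (squares), by RSEM-style (filled) and kallisto-style (open) tables, with the mean over protein-coding transcripts alone as crosses and dashed lines at 1 log2 unit. With coding transcripts alone, the mean of Slc25a12 over Slc25a13 goes from 1.37 to -2.25, that of Slc25a11 over Slc25a12 from 0.82 to 4.43 and that of Slc25a48 over Slc25a47 from -4.66 to -2.75.

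The order of members was stable at the top and blurred lower down. Of 38 neighbours in the order of detected members, 20 had ranges over the libraries that overlapped. From Slc25a4 down to Slc25a39 no neighbours overlapped, whereas Slc25a51 and Slc25a34 did, as did Slc25a23 and Slc25a22. All neighbours from Slc25a32 down to Slc25a26 overlapped, so those members are not ordered beyond their spread.

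Differences of members between the libraries were small. With the exact binomial test on counts scaled by TMM and Benjamini-Hochberg adjustment over 16611 genes, 0 of the 39 members kept by the count filter differed by 1 log2 unit or more at an adjusted p under 0.05, beside 3.11% of all genes tested. At unadjusted p under 0.05 and any ratio, 12 members differed, 3 higher and 9 lower in replicate 2. The share of all genes at this unadjusted level was not computed, so these counts are not read as high or low. At adjusted p and 1 log2 unit, the edgeR exact test with an assumed coefficient of variation of 0.1 or 0.2 also called 0 members. It called 389 and 230 of all genes at these settings. DESeq2 size factors in place of TMM called 0 members as well, beside 515 of all genes. After adjustment and at any ratio, 2 members were higher in replicate 2, beside 10.3% of genes, and 8 were lower, beside 11.5% of genes. The 8 were Slc25a4, Slc25a11, Slc25a12, Slc25a20, Slc25a34, Slc25a13, Slc25a42 and Slc25a44, with log2 ratios from -0.23 to -0.07. The test compares these libraries and covers counting error only, so with deep counts it calls ratios as small as that of Slc25a12.

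Among the 39 members kept by the count filter, Slc25a25 had the widest count ratio, from 335 to 647 counts, a log2 ratio of 0.66 with a 95% interval of 0.47 to 0.86. Slc25a33 was the other member called higher, from 454 to 651 counts and a log2 ratio of 0.24 (0.06 to 0.41). Replicate 2 also had more T cell and thymus RNA, with 9 of 10 genes called higher and Rag2 and Ptcra at 0 counts in replicate 1, and proliferation genes summed to 41.5 and 57.4 TPM over 5 genes. The part of these in the members' ratios was not tested. Slc25a4 went from 113843 to 129644 counts, a log2 ratio of -0.10, and Slc25a20 from 5170 to 5781, a log2 ratio of -0.12. Atrial RNA was lower in replicate 2, with 6 of 8 genes called lower and none at 0, as was Ucp1. Whether these bear on the members that were lower was not tested. The median absolute log2 ratio of TPM was 0.10 for detected members and 0.12 for all detected genes.

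**Figure D4:**
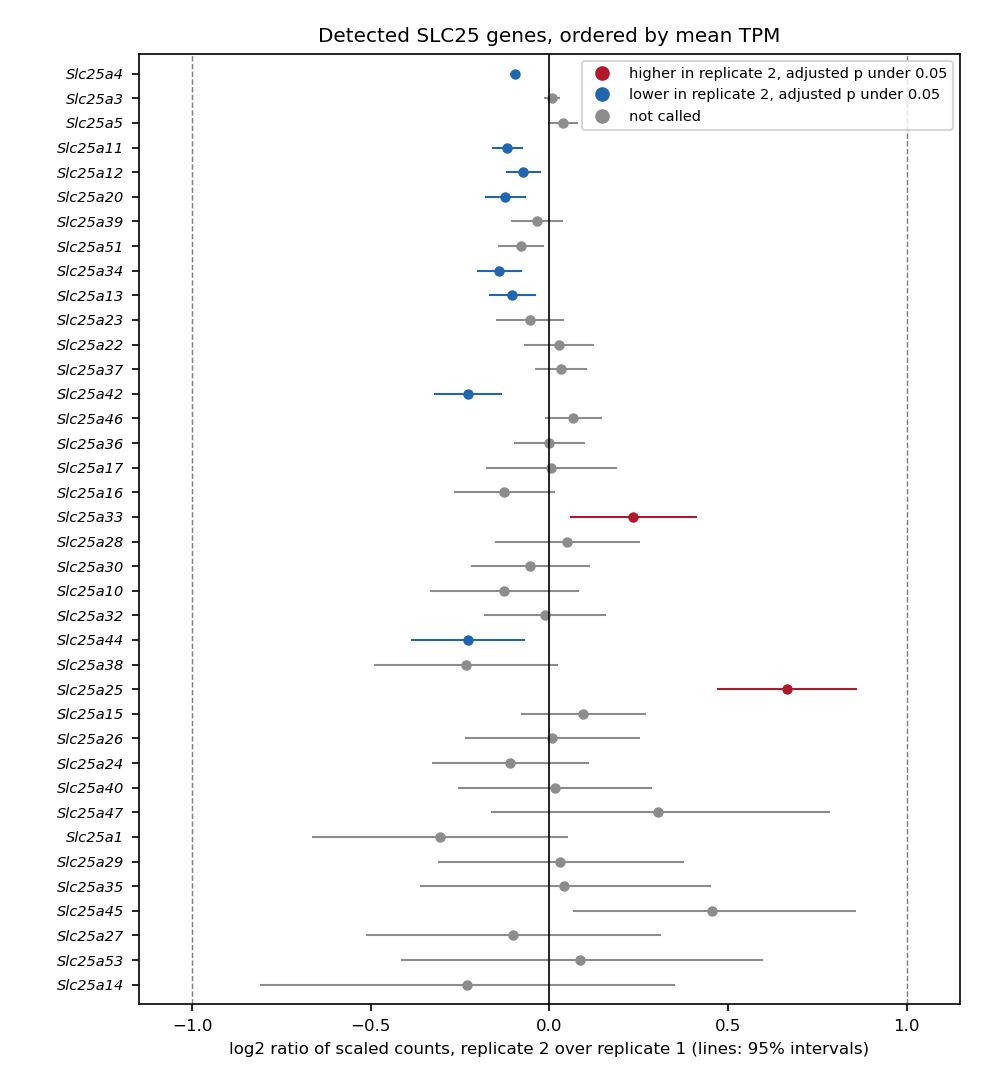
Log2 ratio of scaled counts, replicate 2 over replicate 1, for 38 detected SLC25 genes ordered by mean TPM, with exact 95% intervals as lines and dashed lines at 1 log2 unit. Blue members (8) were lower and red members (2) higher in replicate 2 at an adjusted p under 0.05, and no point reaches 1 log2 unit.

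For some members the TPM of the libraries differed more than their scaled counts. Slc25a36 had 14.8 and 17.6 TPM while its count ratio was 0.00 on the log2 scale (1602 and 1951 counts before scaling). Its effective length, the mean over transcripts by which counts are divided, was 3542 and 3028 bases. Slc25a30 likewise had 6.91 and 8.52 TPM with a count log2 ratio of -0.05 and effective lengths of 2710 and 2153 bases. These TPM differences went with how reads were divided among transcripts of different length.

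Transcript use was otherwise mostly coding. The leading transcript of 36 of the 39 detected members was protein-coding, and 32 had the same leading transcript in both libraries and both tables. Protein-coding transcripts held 90% or more of the TPM in both libraries in 19 members, and under 50% in both in 3: Slc25a12, Slc25a47 and Slc25a53. Slc25a28 was at 48.0% and 60.7%. Gene levels in the kallisto-style tables were higher for 37 of the 39, with a median shift of 0.28 log2 units against 0.26 for all detected nuclear protein-coding genes. Expected counts were fractional, the mark of reads divided with another gene, in 3 members only: Slc25a3, Slc25a5 and Slc25a37. By means over the libraries, the widest shifts of detected members between the tables were 0.77 for both Slc25a1 and Slc25a39, and none was 2-fold apart. Undetected Slc25a43 shifted by 1.43 log2 units. In replicate 1 alone, Slc25a1 was at 2.97 TPM in the RSEM-style table and 6.19 TPM in the kallisto-style table.

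Some members overlap or neighbour other genes. Slc25a35 shares 1882 bases with Rangrf on the opposite strand, which was at 19.0 and 25.1 TPM against 1.87 and 1.84 TPM. Slc25a11 shares 245 bases with Rnf167, at 20.3 and 21.3 TPM, also on the opposite strand. The libraries were stranded, but the strand setting of the authors' counting is not given in the sources used here, so the low level of Slc25a35 is uncertain. Undetected members can sit next to detected ones: Slc25a41 lies 2056 bases from Slc25a23, and Slc25a54 lies 6461 bases from Slc25a24, each at 0 counts.

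The other proteins that pass solutes into mitochondria, 19 genes that do not fall under the symbol rule, summed to 1953 and 1838 TPM, below Slc25a4 alone in replicate 1 and in replicate 2. Of these, 18 were detected in both libraries, and none was called higher and 1 lower in replicate 2 at 1 log2 unit. The pores of the outer membrane were abundant, with Vdac1 at 400.2 and 379.8 TPM, Vdac2 at 207.2 and 203.1 TPM and Vdac3 at 155.9 and 153.8 TPM. Mpc1 and Mpc2, which together form the pyruvate carrier, stood at 211.0 and 203.4 TPM and at 202.4 and 211.8 TPM. The uncoupling proteins are SLC25 carriers under other symbols and are not in the family sums given here. Ucp2 was at 403.5 and 320.4 TPM, above Slc25a5 at 267.3 and 279.1 TPM. Ucp3 of heart and skeletal muscle was at 22.7 and 30.6 TPM, and Ucp1 was the gene called lower, on 459 and 18 counts. Mtch1 and Mtch2, carrier-like proteins of the outer membrane, were at 118.9 and 114.5 TPM and at 76.9 and 75.5 TPM. Letm1, of cation exchange, was at 59.2 and 60.9 TPM. The half-transporters Abcb8 and Abcb10 were at 37.1 and 35.7 TPM and at 19.6 and 18.4 TPM. The sideroflexins Sfxn1 to Sfxn5, which include the serine carrier, ranged from 1.47 to 6.42 TPM.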

How the data were processed

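RNA of 2 heart libraries, 1 group, was quantified by the authors. Per the file headers, the authors deposited expected counts, TPM and, as a percent, each transcript's part of its gene in tables with RSEM's column names, and estimated counts and TPM in tables with kallisto's column names. The readme names mm10 and annotation M21; neither aligner nor versions are given there. Rows that name no annotated gene, spike-ins among them, held 0.518% and 0.531% of expected counts and were left out of the tests.

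Members, substrate classes, pairs and lists were chosen with earlier results of these data known. The text and plots name the members and the genes of the related transport list, except for a few items that are not reported here; counts and sums include them. Gene TPM of the RSEM-style tables were the main values, with 1 TPM in both libraries as detection. Expected counts were rounded; sizes were scaled by TMM (edgeR 4.0.16, R 4.3.3), the filter kept genes with 10 or more counts in both libraries or 20 in sum, and an exact binomial test (SciPy 1.17.1), tested on simulated data, compared the libraries at an adjusted p of 0.05. A quasi-likelihood test needs groups and was not possible. Intervals are exact Clopper-Pearson at 95%. DESeq2 1.42.0 gave size factors as an alternative. Sequences were aligned with Biopython 1.88. Red cell gene Ahsp was not found under that symbol.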

Additional observations from a re-analysis of the deposited data

How the results depend on the processing

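No paired analysis was possible because both libraries belong to a single group. Members detected numbered 34 to 39 and pairs past 1 log2 unit 15 to 17 under every alternative run. Leaving out replicate 1 or 2 gave 39 members detected in each case, 16 and 17 pairs, a family share of 0.979% to 0.999% and an ADP/ATP and phosphate share of 79.1% to 79.4%. The family's share of nuclear protein-coding TPM, 0.989%, became 0.907% with kallisto-style TPM and 1.07% with protein-coding transcripts only. The ADP/ATP and phosphate share, 79.2%, became 78.2%, 81.5% and, with posterior mean TPM, 78.9%. Members differing between libraries went from 0 to 10 when called at any ratio, by construction of that rule, and stayed at 0 without a filter, with kallisto-style counts, DESeq2 size factors and both edgeR settings. Slc25a12 over Slc25a13 was reversed, from 1.37 to -2.25, with protein-coding transcripts only, since its leading transcript is left out; with nonsense-mediated decay transcripts added, an alternative chosen after seeing the data, it was 0.99. With 2 libraries of 1 group, the spread between animals is not known. Levels of SLC25 members below 1 TPM rest on 12 expected counts or fewer per library in the RSEM-style tables.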
